A study of Canis lupus familiaris with 8 samples.

Results

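UCHL1, ANOS1, EPAS1, PPFIA2 and AIFM3 are 5 of the 20257 genes in the count matrices of blood T cells from 4 healthy Beagle dogs. They were chosen from the measured counts, by their levels in CD8A+ and CD4+ cells grouped by GZMK, GZMB and IL7R, so their levels in those groups are given as a description with no test. Peripheral blood T cells were sorted for the αβ T cell receptor (TCRαβ), cryopreserved, thawed together and profiled in a single run by 5' single-cell RNA sequencing. Each dog gave 1 gene expression library and 1 receptor library, so each dog was 1 replicate. The dogs were a 5-year-old female (dog 1), a pair of 7-year-old males (dogs 2 and 3) and a 9-year-old male (dog 4). The study describes no experimental treatment, but all dogs had been given routine vaccinations. Age, sex and dog cannot be told apart.

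The 5 proteins are known mainly from other tissues. UCHL1 is a ubiquitin hydrolase that is abundant in neurons and frees ubiquitin from small adducts. ANOS1 encodes anosmin-1, an extracellular matrix protein that binds heparan sulfate and the fibroblast growth factor receptor FGFR1. EPAS1 encodes HIF-2α, an oxygen-regulated transcription factor subunit, PPFIA2 encodes the scaffold protein liprin-α2, and AIFM3 encodes a mitochondrial oxidoreductase of the apoptosis-inducing factor family. In T cells, GZMK and GZMB encode granzymes of cytotoxic granules and IL7R encodes the receptor chain for the survival cytokine IL-7. Effector cells tend to carry GZMB, and resting naive and memory cells tend to carry IL7R.

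The 4 libraries held 7428 to 8873 barcodes and 26904346 to 35661623 unique molecular identifiers (UMIs, each marking 1 captured transcript). Cells with 500 to 20000 UMIs and at most 10% mitochondrial UMIs were kept, 31909 in all, with median depths of 3599 to 3931.5 UMIs per dog. Virtual gating on 1 UMI gave 6427 CD8A+ single-positive (sp) cells, 13247 CD4+ sp cells, 11510 double-negative (dn) cells and 725 double-positive (dp) cells. A dn cell may have lost its CD4 or CD8A transcript at this depth. Levels are UMIs of a gene scaled to a common total per set of cells (counts per 1000000 UMIs, CPM). In the tested comparisons the total leaves out CD8A, CD4, GZMK, GZMB, IL7R and any gene whose detection split the cells. T cell markers summed to 3120 to 3600 CPM in the dogs and lineages, whereas 7 B cell markers stayed at 8.99 or less. NK cell markers, mostly NCR1, reached 11.7 to 21.4 in CD8A sp cells and at most 0.177 in CD4 sp cells. The myeloid list gave 885 to 3380, essentially from S100A8. Pairs of libraries shared 81 to 113 barcodes, and none of the shared barcodes carried the same TRB chain in both libraries.

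All 5 genes were sparse. A UMI of UCHL1 was found in 846 cells (2.65% of all cells), of ANOS1 in 884 (2.77%), of EPAS1 in 1862 (5.84%), of PPFIA2 in 117 (0.367%) and of AIFM3 in 1178 (3.69%). Of the cells with the gene, 73.5% held a single UMI for UCHL1 and 81.1% to 88.9% for the other genes. UCHL1 reached 20 UMIs in 1 cell, and the other genes reached at most 6. Cells with UCHL1 were deeper than cells without (medians of 4978.5 and 3762 UMIs), so shares of positive cells are given beside levels in CPM. Intervals are 95% exact binomial intervals, which cover counting error only.

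Several of these genes were spread unevenly over T cell clones. A clone was a set of cells from 1 dog with the same TRBV gene, TRBJ gene and TRB junction nucleotides. The junctions of 6 clones described further on are printed 5' to 3', because the junction is the sequence that ties the cells of a clone together. Capitals mark the bases between the codons of the conserved cysteine and phenylalanine, which are in lower case.
EPAS1, dog 3, TRBV7 and TRBJ2-1: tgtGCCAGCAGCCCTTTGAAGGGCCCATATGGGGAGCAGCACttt
EPAS1, dog 2, TRBV24 and TRBJ2-6: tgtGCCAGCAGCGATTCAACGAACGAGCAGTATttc
AIFM3, dog 3, TRBV5-2 and TRBJ1-2: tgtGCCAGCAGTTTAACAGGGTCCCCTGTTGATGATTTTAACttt
AIFM3, dog 2, TRBV25 and TRBJ2-5: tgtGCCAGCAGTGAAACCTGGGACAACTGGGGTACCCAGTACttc
UCHL1, dog 2, TRBV4-3 and TRBJ1-6: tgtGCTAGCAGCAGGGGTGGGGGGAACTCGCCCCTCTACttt
ANOS1, dog 3, TRBV25 and TRBJ2-6: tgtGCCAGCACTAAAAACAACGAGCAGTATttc

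The genes differed in the lineage that carried them. AIFM3 stood at 31.5, 40.0, 67.7 and 18.6 CPM in CD8A sp cells of dogs 1 to 4 (mean 39.5 ± 20.8, SD, n = 4) and at 0.773, 2.32, 4.24 and 1.92 in CD4 sp cells. The lowest CD8A value lay above the highest CD4 value, and 13.4% of CD8A sp cells held AIFM3 (interval 12.5% to 14.2%) against 0.83% of CD4 sp cells. Median depths were 3726 UMIs in CD8A sp cells and 3955 in CD4 sp cells. PPFIA2 stood at 0, 5.56, 5.46 and 0.497 CPM in CD8A sp cells of dogs 1 to 4 and at 0.0702, 0.258, 0.353 and 0.442 in CD4 sp cells. It was higher in CD8A sp cells of dogs 2 and 3 and nearly equal in dog 4 (4 and 6 UMIs), and dog 1 had 1 UMI among CD4 sp cells. In dog 1 none of 691 CD8A sp cells held a UMI of it (3 counts would be a share of 0.434%). Such limits, at 3 counts, concern cells with a UMI and not cells that express the gene.

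UCHL1 was higher in CD8A than in CD4 sp cells of each dog, with 12.4, 40.8, 22.2 and 10.2 CPM against 1.55, 9.01, 5.74 and 5.16. EPAS1 showed the opposite order, with 2.12, 10.3, 11.6 and 6.21 in CD8A sp cells and 5.20, 23.6, 14.8 and 30.2 in CD4 sp cells. The UCHL1 ranges of the lineages did not overlap, while those of EPAS1 did, since dog 1 was low and dog 4 high among CD4 sp cells. ANOS1 hardly separated the lineages, at 9.01 ± 4.70 in CD8A sp, 7.45 ± 2.78 in CD4 sp and 7.86 ± 2.97 in dn cells (SD, n = 4 each). In dn cells EPAS1 stood at 20.2 ± 10.8 and AIFM3 at 3.89 ± 2.71, close to their CD4 levels. The dp cells held 17.9 ± 4.17 of AIFM3 and 15.0 ± 4.70 of UCHL1. They were deeper, with a median of 5656 UMIs against 3726 in CD8A sp and 3955 in CD4 sp cells. Whether some were droplets holding a CD8A cell and a CD4 cell was not tested.

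The memory gate was the set of CD8A sp cells with GZMK and IL7R and without GZMB. It held 14, 122, 234 and 91 cells of dogs 1 to 4, or 2.03% to 10.3% of their CD8A sp cells. CCR7, the lymph node homing receptor of naive and central memory cells, was found in 21.4%, 26.2%, 28.6% and 17.6% of the gated cells and in 16.4%, 15.5%, 13.0% and 3.82% of all CD8A sp cells. Against the other CD8A sp cells, 72 of 8191 genes tested (0.879%) passed an adjusted p of 0.05 with edgeR's quasi-likelihood test and Benjamini-Hochberg adjustment, 30 higher and 42 lower. A fit that kept the dog as a block called 445, and 37 passed without dog 2, 42 without dog 1 and 43 without dog 3. The costimulatory receptors CD28 (log2 fold change 1.55 ± 0.21, SE) and ICOS (1.03 ± 0.13) were higher, as were the helper ligand CD40LG (1.88 ± 0.27) and the chemokine receptor CXCR3 (1.10 ± 0.23). GZMA (-5.37 ± 0.45), CCL5 (-2.99 ± 0.39), PRF1, which encodes perforin (-1.47 ± 0.30), and the proliferation gene MKI67 (-3.86 ± 0.40) were lower. Of 15 memory genes tested 4 were higher and none lower, and of 13 effector genes 5 were lower and none higher. NK cell markers summed to at most 7.29 CPM in the gate and to 12 to 22.5 in the other CD8A sp cells. The other CD8A sp cells included those with GZMB, which the gate left out. The differences in memory and effector genes are therefore not independent of the 3 genes that defined the gate. Most of the gated cells showed no CCR7.

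Within the gate UCHL1 stood at 63.4, 45.8, 49.1 and 21.1 CPM in dogs 1 to 4, from 4, 25, 54 and 9 UMIs. The other CD8A sp cells held 11.2, 40.4, 18.3 and 9.58, so every dog was higher in the gate and the groups overlapped through dog 2. UCHL1 was present in 13.4% of the gated cells, and in 7.35% once each cell had been thinned to 2000 UMIs and 39 of the 461 cells had been left out as too shallow.

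ANOS1 stood at 79.2, 14.7, 36.3 and 9.40 CPM in the gate, from 5, 8, 40 and 4 UMIs, against 9.76, 5.74, 11.2 and 3.54 in the other CD8A sp cells. Every dog was again higher in the gate, and the value of dog 1 rested on 5 UMIs in 14 cells. EPAS1 gave 0, 22.0, 13.6 and 18.8 against 2.17, 9.15, 11.3 and 5.51, so dogs 2 to 4 were higher and dog 1 had no UMI. PPFIA2 gave 0, 12.8, 23.6 and 0 against 0, 4.84, 2.86 and 0.525, so dogs 2 and 3 were higher and dogs 1 and 4 had no UMI in the gate.

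AIFM3 behaved differently from the other 4 genes in the gate, both by its level in CPM and by its share of positive cells. It stood at 0, 29.3, 52.7 and 16.4 CPM in dogs 1 to 4 against 32.2, 41.1, 69.8 and 18.8 in the other CD8A sp cells, lower in each dog. Its value of 0 in dog 1 rested on 14 cells, and that of dog 4 on 7 UMIs. The log2 fold change was -0.137 ± 0.476 (SE). AIFM3 was found in 14.8% of the gated cells and in 13.4% of all CD8A sp cells, at median depths of 4515 and 3726 UMIs. In the same sets of cells the shares were 13.4% and 5.59% for UCHL1 and 10.6% and 3.16% for ANOS1. They were 6.72% and 3.17% for EPAS1 and 5.64% and 1.14% for PPFIA2.

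The 3 gate genes also set the order of classes among CD8A sp cells. AIFM3 was highest where GZMK and GZMB occurred together, at 73.1, 67.0, 109 and 36.3 CPM with IL7R and 72.9, 75.9, 87.0 and 29.7 without. These 2 classes did not differ beyond their spread (71.3 ± 29.8 and 66.4 ± 25.2, SD, n = 4 each). Cells with IL7R alone of the 3 genes held 5.76 ± 2.37 of AIFM3, and the lowest dog of either GZMK+ GZMB+ class lay above the highest dog there, at 8.89. The share of AIFM3+ cells in the GZMK+ GZMB+ IL7R+ class was 28.8%, and 16.9% after thinning.

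EPAS1 was highest in classes with IL7R. None of 298 CD8A sp cells with GZMK and without GZMB and IL7R held a UMI of EPAS1 (3 counts would be a share of 1.01%), whereas 31 of the 461 cells of the memory gate did. Median depths were 3349 and 4515 UMIs. EPAS1 had means of 18.1 ± 4.22 CPM in the memory gate (SD, n = 3), 14.5 ± 2.66 in GZMK+ GZMB+ IL7R+ cells and 12.4 ± 8.01 in GZMK- GZMB- IL7R+ cells (SD, n = 4 each). The gate mean left out dog 1, which had 14 gated cells, under the 20 needed for a class value, and no EPAS1 UMI in them. With dog 1 the gate mean was 13.65 ± 9.74 (SD, n = 4), so the order of these classes depended on that dog. The remaining 5 CD8A sp classes had means of 5.29 or less, GZMK- GZMB+ IL7R+ cells among them.

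ANOS1 was highest in classes with GZMK. Its mean was 18.0 ± 9.75 CPM in GZMK+ GZMB+ IL7R+ cells, and 13.5, 21.4, 68.2 and 0 in GZMK+ GZMB- IL7R- cells of dogs 1 to 4, 9.95 ± 8.54 in GZMK+ GZMB+ IL7R- cells, while the 4 classes without GZMK had means of 4.00 or less. The wide range in GZMK+ GZMB- IL7R- cells rested on 26 UMIs. UCHL1 had a higher mean with IL7R than without in each of the 4 combinations of GZMK and GZMB, although the difference was small without both granzymes (18.8 ± 9.64 and 15.9 ± 14.9). Its highest class means were 38.7 ± 15.3 in the memory gate (n = 3 dogs with at least 20 cells), 38.8 ± 31.0 in GZMK- GZMB+ IL7R+ cells and 33.1 ± 14.0 in GZMK+ GZMB+ IL7R+ cells, which did not differ beyond their spread.

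**Figure D1:**
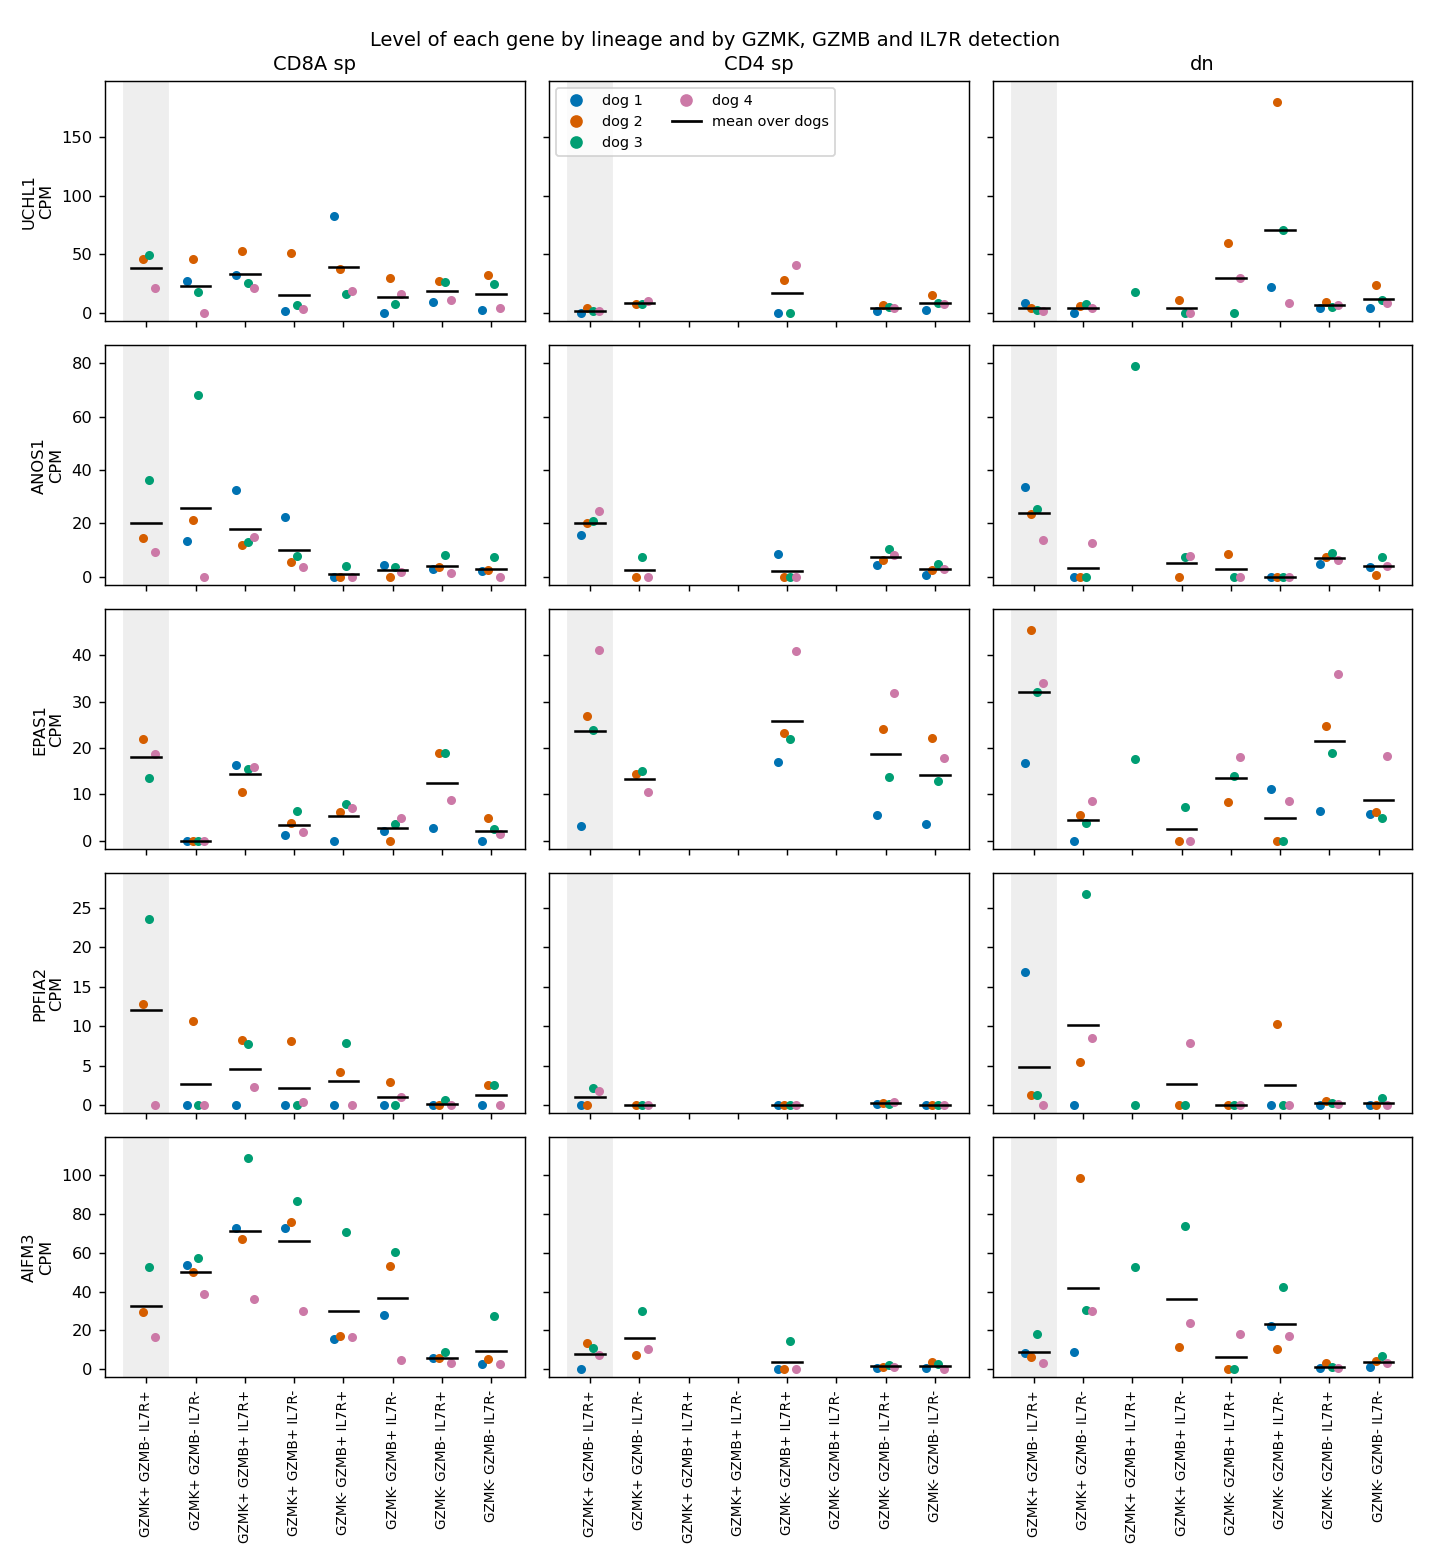
Levels in CPM (y axes, from 0) of each gene by lineage (columns) and by detection of GZMK, GZMB and IL7R (x axes). Points are dogs with at least 20 cells in the class, lines are means over at least 3 dogs, classes where no dog had 20 cells are blank, and the grey band marks the GZMK+ GZMB- IL7R+ gate. AIFM3 peaks at 109 in CD8A sp cells with both granzymes, EPAS1 is at 0 in all 4 dogs in CD8A sp GZMK+ GZMB- IL7R- cells, and UCHL1 reaches 180 in dn cells of dog 2.

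The same gate in CD4 sp cells gave another order. It held 71, 216, 276 and 248 cells of dogs 1 to 4. ANOS1 stood at 15.5, 20.2, 21.0 and 24.6 CPM in these cells against 3.88, 5.45, 9.15 and 7.22 in the other CD4 sp cells. Every gated value lay above every other value. UCHL1 went the other way than in CD8A sp cells, with 0, 3.84, 1.45 and 1.82 against 1.58, 9.39, 6.33 and 5.45, lower in each dog. Only 8 UCHL1 UMIs were found in these 811 gated cells. EPAS1 gave 3.1, 26.9, 23.9 and 41.0 against 5.25, 23.3, 13.6 and 29.3, higher in dogs 2 to 4 and lower in dog 1. AIFM3 gave 0, 13.4, 10.9 and 7.30 against 0.79, 1.52, 3.32 and 1.44, again higher in dogs 2 to 4.

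The dn cells were not used in choosing the genes, although they came from the same libraries and may include CD8A and CD4 cells whose transcript was missed. Among them the gate held 33, 323, 356 and 164 cells. Here 43 of 9380 genes tested (0.458%) passed, 17 higher and 26 lower, and 1 of the 4 genes tested was among them. Leaving out dog 2 or dog 3 gave 9 calls, and the block 481. The gated dn cells were richer in the receptor KLRG1 (log2 fold change 2.16 ± 0.39, SE), the NK receptor chain KLRD1 (2.49 ± 0.41) and the memory and effector transcription factor EOMES (2.39 ± 0.41), and poorer in ADAM19 (-3.22 ± 0.26), FCER1G (-3.41 ± 0.44) and the integrin chain ITGA2 (-2.74 ± 0.36).

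ANOS1 was higher in the gated dn cells. It stood at 33.8, 23.6, 25.3 and 13.9 CPM in dogs 1 to 4 against 4.27, 6.14, 9.17 and 6.12 in the other dn cells, and the groups did not overlap (24.2 ± 8.13 and 6.42 ± 2.03, SD, n = 4 each). The log2 fold change was 1.88 ± 0.29 (SE), with an adjusted p of 0.0131 in edgeR's quasi-likelihood test. With the dog as a block the adjusted p was 1e-06, and with DESeq2 it was 1.7e-05. Leaving out dog 2 gave 0.243 and leaving out dog 3 gave 0.0602, with log2 fold changes of 1.80 and 2.0. Gated cells were deeper than the others in each dog, with medians of 3286, 5269, 4538 and 3977.5 UMIs against 3232, 3481, 3482 and 3521.5.

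The other genes did not pass in the gated dn cells without the block. EPAS1 stood at 16.9, 45.5, 32.1 and 34.1 CPM against 6.11, 20.8, 16.1 and 31.8, higher in 4 of 4 dogs (log2 fold change 1.05 ± 0.41, adjusted p = 0.372, edgeR). With the dog as a block its adjusted p was 0.000116. AIFM3 gave 8.44, 6.06, 17.9 and 3.1 against 0.923, 5.08, 5.03 and 2.29, also higher in 4 of 4 dogs (1.63 ± 0.58, adjusted p = 0.315, and 0.0339 with the block, edgeR). UCHL1 gave 8.44, 4.24, 2.47 and 1.55 against 4.5, 15.5, 7.05 and 7.32, lower in dogs 2 to 4 (-1.34 ± 0.56, adjusted p = 0.408, and 0.00833 with the block, edgeR). PPFIA2 was too sparse to be tested, at 16.9, 1.21, 1.24 and 0 against 0, 0.671, 1.12 and 0.437.

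Whether the genes went with CCR7 inside the CD8A lineage was asked next. This comparison was chosen with the data already seen, because in the GZMK+ GZMB- cells dog 1 had only 6 cells with CCR7. Over all CD8A sp cells, 750 of 8228 genes tested (9.12%) passed between cells with and without a CCR7 UMI, 381 higher and 369 lower, and 1 of the 4 genes tested was among them. The count was 490 without dog 1, 264 without dog 2, 313 without dog 3 and 1385 with the dog as a block. LEF1 (log2 fold change 2.51 ± 0.25, SE) and TCF7 (1.03 ± 0.14), transcription factors of naive and memory cells, were higher with CCR7, and 12 of 13 effector genes were lower and none higher. NCR1 was lower (-2.78 ± 0.36), so cells with NK markers were also unequally split.

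UCHL1 was higher in CD8A sp cells with CCR7. It stood at 20.7, 62.1, 49.0 and 40.9 CPM in dogs 1 to 4 against 10.7, 36.0, 16.5 and 8.13 without CCR7 (43.2 ± 17.3 and 17.8 ± 12.6, SD, n = 4 each). Every dog was higher with CCR7, and the groups overlapped because dog 1 was low and dog 2 high in both. The log2 fold change was 1.48 ± 0.43 (SE) with an adjusted p of 0.0484 in edgeR's quasi-likelihood test, 8e-06 with the dog as a block and 0.0321 with DESeq2. UCHL1 had been chosen on UMIs of these same cells, and CCR7 was commoner in the memory gate than in all CD8A sp cells of each dog. The call is therefore not independent of the choice and is read as a description. Leaving out dog 1, 3 or 4 raised the adjusted p to 0.0957, 0.216 and 0.106, so the call needed each of these dogs, and leaving out dog 2 gave 0.0172. Cells with CCR7 had median depths of 4181 to 5061.5 UMIs and cells without had 3452.5 to 3856.

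AIFM3 stood at 14.5, 17.9, 51.0 and 17.5 CPM with CCR7 against 35.1, 45.5, 71.6 and 18.8 without, lower in each dog (log2 fold change -0.44 ± 0.47, adjusted p = 0.653, and 0.00878 with the dog as a block, edgeR). ANOS1 (0.24 ± 0.52, adjusted p = 0.861) and EPAS1 (-0.45 ± 0.56, adjusted p = 0.722, edgeR) gave no call. Like UCHL1, these genes had been chosen on UMIs of the same cells. Their p-values for CCR7, with or without the block, are therefore not independent of the choice and are read as a description. In the smaller set of GZMK+ GZMB- cells of dogs 2 to 4, 0 of 5544 genes passed (0%) in edgeR, with 463 at an unadjusted p under 0.05, 14 called by DESeq2 and 140 with the block. UCHL1 kept its direction there, at 70.6, 63.4 and 26.4 CPM with CCR7 against 40.4, 35.6 and 8.59 (1.07 ± 0.47, adjusted p = 0.551, edgeR). AIFM3 did not keep its direction, with means of 40.6 CPM with CCR7 and 37.5 without. It was higher with CCR7 in 2 of these 3 dogs (0.508 ± 0.405, adjusted p = 0.813, edgeR).

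**Figure D2:**
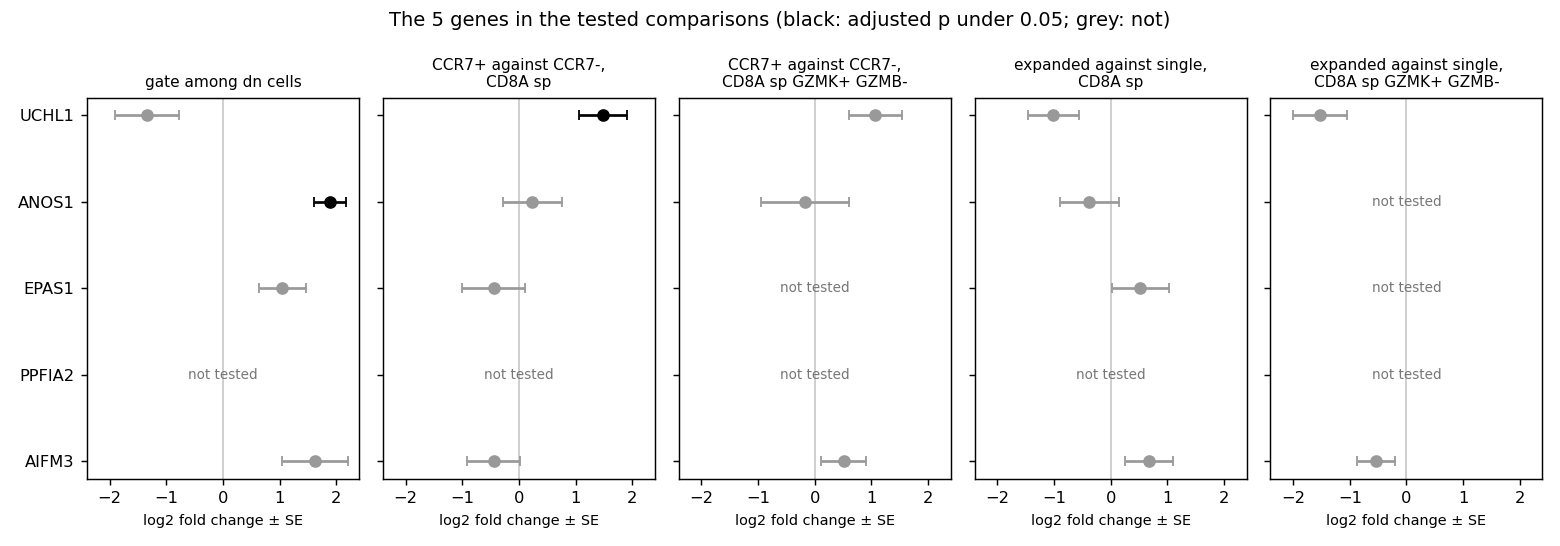
Log2 fold changes (points) with standard errors (bars) of the 5 genes in 5 comparisons, from edgeR's quasi-likelihood fit without the dog as a block. Only the dn comparison used cells outside the choice of the genes. The others split CD8A sp cells, whose UMIs the choice had used, by CCR7 or by clone size. Black points passed an adjusted p of 0.05 (ANOS1 in gated dn cells at 1.88 and UCHL1 with CCR7 in CD8A sp cells at 1.48), grey points did not, and genes marked as not tested had too few UMIs.

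Splitting CD8A sp cells by other transcripts put UCHL1 on the side of CD28 and against FCER1G, the Fc receptor chain of innate-like T cells. UCHL1 stood at 36.4, 64.4, 35.3 and 30.5 CPM with CD28 and 8.90, 33.0, 19.0 and 6.47 without in dogs 1 to 4. With FCER1G it stood at 3.16, 10.0, 4.91 and 2.95 against 15.0, 51.8, 25.5 and 13.2 without, and these groups did not overlap. With MKI67 it was 55.9, 107, 14.3 and 44.9 against 9.75, 35.8, 22.4 and 8.47, higher in dogs 1, 2 and 4 and lower in dog 3. In CD4 sp cells UCHL1 was also higher with MKI67 in dogs 2 to 4 (42.2, 56.4 and 48.0 against 7.09, 3.93 and 3.45) and nearly equal in dog 1 (1.60 against 1.54). With FOXP3, the regulatory T cell factor, it stood at 1.95, 32.0, 17.3 and 18.7 in CD4 sp cells against 1.53, 7.33, 4.64 and 4.37 without.

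The CD8A sp cells that held UCHL1 differed from the rest in other genes, in a comparison added after the data had been seen. Of 8103 genes tested, 24 passed (0.296%), 9 higher and 15 lower, with 934 at an unadjusted p under 0.05. UCHL1+ cells numbered 20, 150, 135 and 54 in dogs 1 to 4, with median depths of 4458.5 to 5286 UMIs against 3531 to 3897 in the rest. RRM2, a ribonucleotide reductase subunit used in DNA synthesis, stood at 210, 62.4, 18.5 and 260 CPM in UCHL1+ cells against 10.8, 11.7, 7.40 and 7.93. The groups did not overlap (log2 fold change 3.60 ± 0.57, SE, adjusted p = 0.0389, edgeR). The replication licensing genes MCM3 (1.40 ± 0.24) and CDC6 (2.98 ± 0.49), the thymidine kinase gene TK1 (2.35 ± 0.41) and the chromatin remodeller gene HELLS (1.64 ± 0.27) were higher as well.

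GZMA had the lowest adjusted p among the list genes that were lower, at 16.1, 27.5, 23.2 and 18.8 CPM in UCHL1+ cells against 208, 182, 188 and 396 (-3.33 ± 0.34, adjusted p = 0.00199, edgeR). FCER1G (-2.21 ± 0.27), the NK receptor gene NCR1 (-3.33 ± 0.59), the integrin gene ITGAM (-2.62 ± 0.49), the cytokine receptor gene IL2RB (-0.87 ± 0.16) and SRGAP3 (-1.72 ± 0.27) were lower. Of the 13 effector genes tested 2 were lower and none higher, and of the 15 memory genes IL2RB alone was called. The number of calls depended on the dogs, with 5 without dog 1, 1 without dog 2, 114 without dog 3 and 5 without dog 4, and on pairing, with 251 with the dog as a block and 167 by DESeq2.

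**Figure D3:**
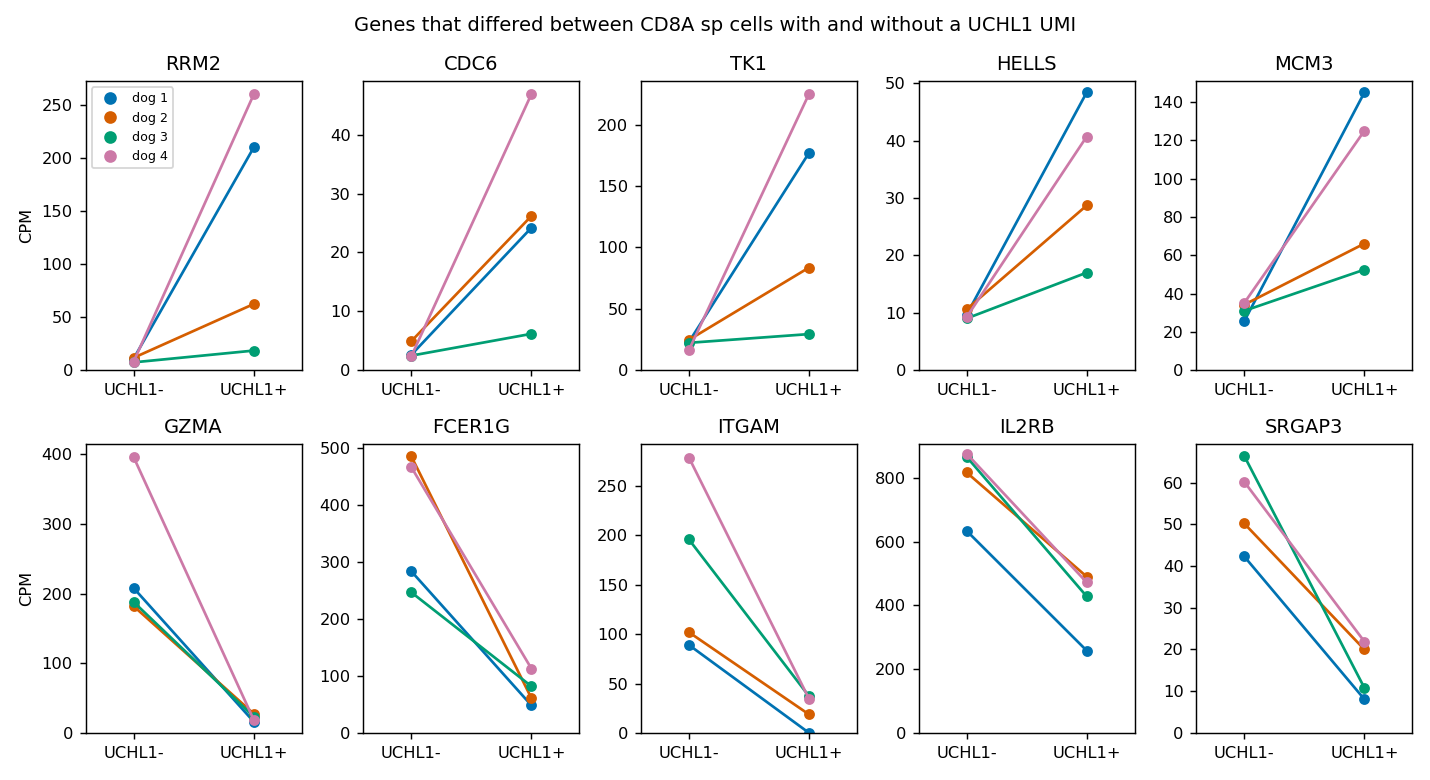
CPM (y axes, from 0) of 10 genes in CD8A sp cells without (UCHL1-) and with (UCHL1+) a UMI of UCHL1, with 1 line per dog. RRM2, CDC6, TK1, HELLS and MCM3 are higher in UCHL1+ cells of each dog, least so in dog 3, where RRM2 goes from 7.40 to 18.5. GZMA, FCER1G, ITGAM, IL2RB and SRGAP3 are lower in each dog.

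AIFM3 and EPAS1 separated cells differently. In CD8A sp cells AIFM3 was higher with EOMES, at 77.4, 77.3, 88.4 and 28.0 CPM against 24.4, 30.3, 63.0 and 16.6, and higher with the effector factor ZEB2, at 38.2, 69.7, 102 and 22.4 against 30.5, 35.5, 60.2 and 17.5. It was lower with MKI67, at 6.21, 11.6, 32.3 and 5.28 against 33.0, 42.2, 68.8 and 19.3. All 4 dogs moved the same way in these 3 splits, and the groups overlapped in each. ANOS1 was lower with ZEB2 in each dog (5.46, 1.22, 5.07 and 2.13 against 12.2, 7.35, 16.4 and 4.37) and lower with the transcription factor gene TOX (3.49, 2.55, 8.86 and 0.992 against 14.7, 8.42, 15.9 and 5.57).

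In CD4 sp cells EPAS1 was higher with CCR9, the gut homing chemokine receptor, at 14.3, 44.4, 25.0 and 45.6 CPM in dogs 1 to 4 against 4.97, 16.7, 12.8 and 23.4. Of CD4 sp cells with CCR9, 17.3% held EPAS1 against 4.56% of those without, at median depths of 4964 and 3813 UMIs. EPAS1 was also higher with CXCR3, at 17.2, 31.4, 23.1 and 36.3 against 4.07, 21.0, 12.4 and 27.0. It was lower with the naive cell factor LEF1, at 3.64, 18.7, 9.54 and 25.1 against 11.9, 32.0, 22.2 and 35.6, and lower with CCR7, at 2.30, 17.2, 7.00 and 22.7 against 7.95, 28.3, 21.3 and 33.2. All 4 dogs agreed in these 4 splits, and dog 1 was lowest in each group.

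**Figure D4:**
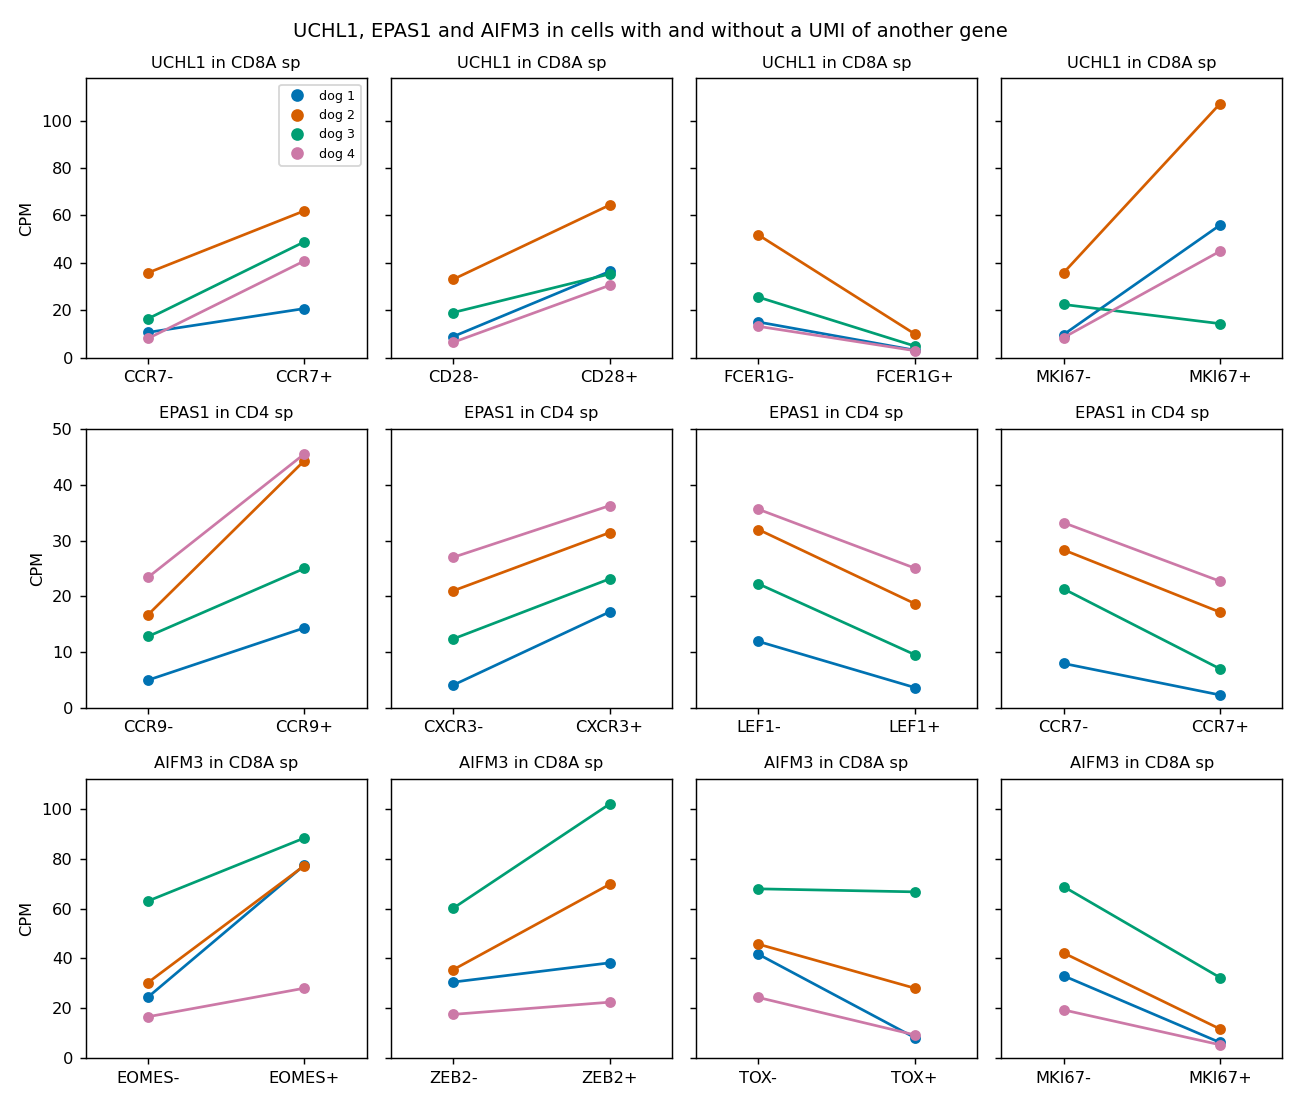
CPM (y axes, from 0) of UCHL1 and AIFM3 in CD8A sp cells and of EPAS1 in CD4 sp cells, without (-) and with (+) a UMI of another gene, with 1 line per dog. The splits drawn were chosen after their values had been seen. In them all dogs move the same way except in the split of UCHL1 by MKI67, where dog 3 falls from 22.4 to 14.3, and the change of AIFM3 by TOX in dog 3 is small (67.9 to 66.7). Splits not drawn include some where 2 dogs were higher and 2 lower, such as UCHL1 by KLRK1 and AIFM3 by FCER1G in CD8A sp cells. EPAS1 by GATA3 in CD4 sp cells is another.

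Splits by a gene in the same cells gave few other calls. Between CD8A sp cells with and without AIFM3, 0 of 8397 genes passed (0%) in edgeR, with 541 at an unadjusted p under 0.05, 25 called by DESeq2, 183 under the block and 3 when dog 3 was left out. Between CD4 sp cells with and without EPAS1 it was 0 of 9562 (0%), with 819 at an unadjusted p under 0.05, 15 by DESeq2 and 312 with the block, and leaving out dog 4 gave 8. Between CD4 sp cells with and without ANOS1 it was 0 of 9539 (0%), with 441 at an unadjusted p under 0.05, 0 by DESeq2 and 77 with the block. These comparisons were added after the data had been seen.

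EPAS1 was found in a larger share of cells with ANOS1 than of cells without it. In CD4 sp cells 13.5% of the 349 ANOS1+ cells held EPAS1 against 6.33% of the ANOS1- cells, and in dn cells 13.2% against 6.15%. In CD8A sp cells the shares were 8.37% and 3.0%, from 17 cells with both. Pooled over dogs, AIFM3 was found in 25 of the 73 PPFIA2+ CD8A sp cells (34.2%) against 13.1% of the rest. These 25 cells numbered 0, 8, 16 and 1 in dogs 1 to 4, and dog 3 had the highest share of AIFM3+ CD8A sp cells (20.4%). The part of the dogs in the pooled shares was not tested. UCHL1 and ANOS1 met in 18 CD8A sp cells, 15 of them from dog 3. Cells with a gene were deeper than cells without, and the part of depth in these shares was not tested.

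Clone size was compared by setting cells of clones with at least 2 cells against cells with a TRB chain seen once. Clone size came from the receptor libraries, but the UMIs of these CD8A sp cells had been used in choosing the genes. Over all CD8A sp cells, a comparison added after the data had been seen, 88 of 8286 genes passed (1.06%), 25 higher and 63 lower, and none of the 4 genes tested was among them. The count was 24 without dog 1, 37 without dog 2, 31 without dog 3, 545 with the dog as a block and 195 by DESeq2. TBX21, the effector factor T-bet, was higher in expanded clones (1.08 ± 0.23), and CCR7 (-2.87 ± 0.40) and LEF1 (-2.50 ± 0.22) were lower. UCHL1 stood at 7.82, 41.2, 15.2 and 7.58 CPM in expanded clones of dogs 1 to 4 against 21.7, 40.5, 44.6 and 26.0 in single cells. It was lower in dogs 1, 3 and 4 and about equal in dog 2 (log2 fold change -1.01 ± 0.46, SE, adjusted p = 0.366, and 0.0214 with the dog as a block, edgeR).

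AIFM3 was higher in expanded clones of each dog, at 48.5, 48.8, 79.8 and 19.4 CPM against 15.4, 37.0, 41.7 and 17.8 (log2 fold change 0.68 ± 0.42, SE, adjusted p = 0.56, and 0.0234 with the dog as a block, edgeR). The difference was small in dog 4. Without the largest clone of each dog the log2 fold change was 0.45. ANOS1 (-0.38 ± 0.52, adjusted p = 0.845) and EPAS1 (0.53 ± 0.51, adjusted p = 0.756, edgeR) gave no call. In GZMK+ GZMB- cells of dogs 2 to 4, 0 of 4425 genes passed (0%) in edgeR, with 221 at an unadjusted p under 0.05, 1 by DESeq2, 18 with the block and 3 without dog 4. UCHL1 stood at 35.6, 29.7 and 2.37 there in expanded clones against 74.8, 77.3 and 34.2, lower in each dog (-1.53 ± 0.47, adjusted p = 0.909, and 0.0469 with the block, edgeR).

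The 70 clones of at least 20 cells showed how far each gene was shared within a clone. They held 3109 cells, 3, 13, 23 and 31 clones in dogs 1 to 4, and the largest had 148 cells. EPAS1 was found in every clone whose commonest class was CD4 sp or dn. In CD4 sp clones it was present in 16.1% to 28.6% of cells in dog 2 (3 clones), 9.09% to 14.0% in dog 3 (3 clones) and 7.14% to 38.5% in dog 4 (15 clones). In 13 dn clones it ranged from 1.96% to 32.8%. Among CD8A sp clones 10 of 13 in dog 4, 4 of 6 in dog 2, 3 of 10 in dog 3 and 2 of 3 in dog 1 had no EPAS1+ cell. Over all CD8A sp cells EPAS1 was found in 0.868%, 4.06%, 4.12% and 2.27% of cells of dogs 1 to 4. In all CD4 sp cells the shares were 1.72%, 8.54%, 5.12% and 10.8%. At such shares a small CD8A sp clone may hold no EPAS1+ cell through sampling alone.

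Among the clones printed above, the TRBV24 and TRBJ2-6 clone of dog 2 held EPAS1 in 20 of 61 cells (32.8%, interval 21.3% to 46.0%), of which 56 were dn, and 7 of its cells held ANOS1 and 7 AIFM3. The TRBV7 and TRBJ2-1 clone of dog 3 had 23 of 94 cells (24.5%, interval 16.2% to 34.4%). Without its clone the dn level of EPAS1 in dog 2 went from 24.2 to 22.8 CPM, so this level did not rest on the printed clone.

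AIFM3 varied strongly between CD8A sp clones of the same dog. In dog 3 the 10 clones ranged from 3.57% to 50.0% of cells with AIFM3 (median 23.85%). The TRBV5-2 and TRBJ1-2 clone had 73 of 148 cells (49.3%, interval 41.0% to 57.7%), whereas the TRBV1 and TRBJ1-4 clone had 16 of 103 (15.5%, interval 9.15% to 24.0%). These intervals did not overlap, but they cover counting error in cells of 1 dog only. The part of depth and of GZMK and GZMB classes in this difference was not tested. In dog 2 the TRBV25 and TRBJ2-5 clone had 33 of 63 cells (52.4%, interval 39.4% to 65.1%). In dog 4 no clone was above 18.5%, 7 of 13 clones had no AIFM3+ cell, and 0 of 129 cells of the TRBV3-1 and TRBJ2-1 clone held a UMI of it (3 counts would be a share of 2.33%). The named clones of dogs 3 and 2 made up 16.2% and 14.7% of the AIFM3+ cells with 1 TRB chain in these dogs, and without them the CD8A sp levels went from 67.7 to 60.2 and from 40.0 to 34.5 CPM.

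UCHL1 was unevenly spread over large clones. It was absent from all 3 clones of dog 1 and from the dn clones of dogs 3 and 4, 8 and 3 in number. Over all cells it was found in 2.89% of CD8A sp cells of dog 1 and in 1.85% and 2.0% of dn cells of dogs 3 and 4. In dog 2 only 1 of 6 CD8A sp clones lacked it (median 7.72% of cells, against 10.5% of all CD8A sp cells). The 3 CD4 sp clones of dog 2 held it in 3.7% to 6.45% of cells, against 2.76% of all CD4 sp cells. The highest shares were in a pair of CD8A sp clones of dog 2, the TRBV4-3 and TRBJ1-6 clone with 16 of 53 cells (30.2%, interval 18.3% to 44.3%) and a TRBV16 and TRBJ2-1 clone with 5 of 20 (25.0%, interval 8.66% to 49.1%). All 53 cells of the first held GZMK, 44 held GZMB and 6 held IL7R, so it lay mostly outside the memory gate. ANOS1 was found in at most 7 cells of a clone. This number was reached in the TRBV24 and TRBJ2-6 clone of dog 2 and, with 7 of 51 cells, in the TRBV25 and TRBJ2-6 clone of dog 3, a dn clone in which all 51 cells held GZMK, 38 held IL7R and 21 held AIFM3 (41.2%). PPFIA2 was absent from most clones and reached at most 6.38% of cells.

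**Figure D5:**
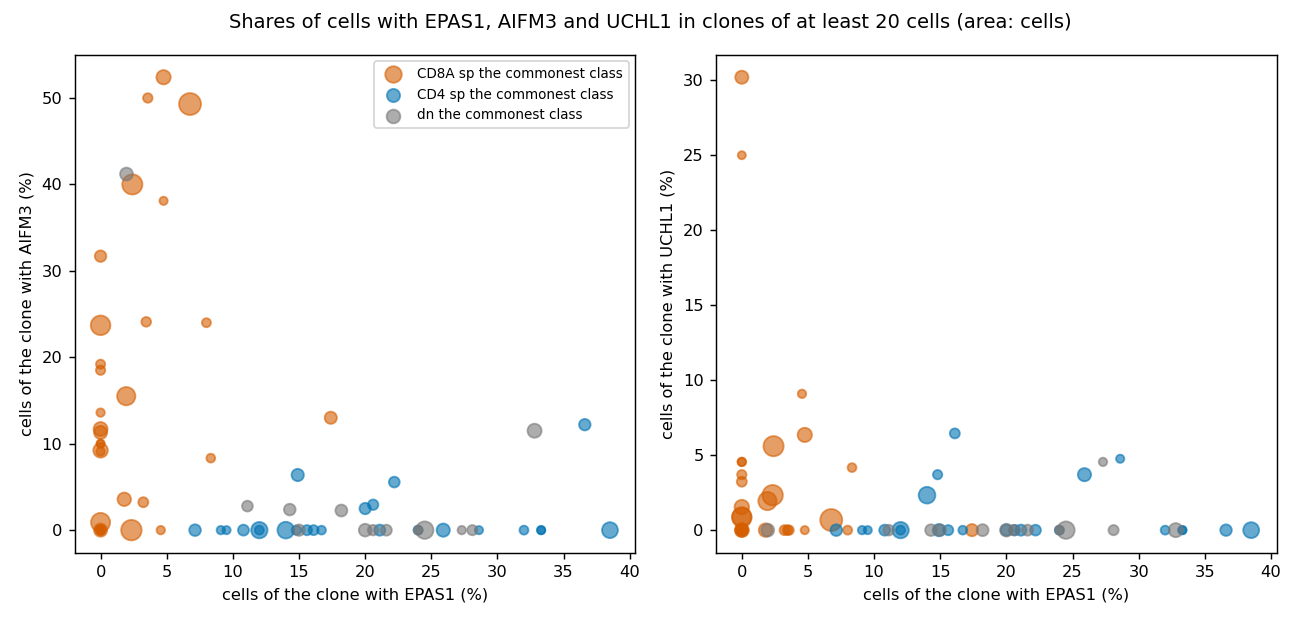
Share of cells with AIFM3 (left) and UCHL1 (right) against the share with EPAS1, in percent, in the 70 clones of at least 20 cells. Each circle is a clone, its area follows its number of cells, and its colour gives the commonest class. Clones of CD4 sp and dn cells spread to the right, up to 38.5% with EPAS1, and clones with over 20% AIFM3 stay at 8.0% EPAS1 or less.

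The genes of the same pathways and families were followed from lists. Of the 12 HIF subunits and regulators, HIF1A stood at 103 ± 4.12 CPM in CD8A sp and 105 ± 6.22 in CD4 sp cells (SD, n = 4), and HIF3A and ARNT2 had no UMI in these lineages. The prolyl hydroxylase gene EGLN3, whose protein marks HIF subunits for decay, stood at 9.87 ± 3.0 in CD8A sp and 19.2 ± 4.18 in CD4 sp cells, a range of 6.01 to 13.2 against 14.5 to 24.5, which do not overlap. In the tested comparisons 0 of 7 to 10 HIF subunits and regulators and 0 of 10 to 20 HIF target genes passed in edgeR without the dog as a block. The lists were not counted with the block. FGFR1, the receptor that anosmin-1 binds, stood at 2.90 ± 0.76 in CD8A sp and 0.62 ± 0.68 in CD4 sp cells, and none of the 13 genes of its list had enough UMIs to be tested.

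Among the relatives of UCHL1 and AIFM3 the lineage difference varied. UCHL3 stood at 23.8 ± 2.55 in CD8A sp and 23.4 ± 2.95 in CD4 sp cells and UCHL5 at 62.7 ± 2.20 and 62.3 ± 2.19, and AIFM1 at 20.9 ± 1.94 and 21.8 ± 1.70. AIFM2 was higher in CD8A sp cells, at 9.01 ± 3.24 against 3.97 ± 1.0, and PPFIA1, the broadly used liprin, ranged from 17.6 to 23.0 in CD8A sp and from 17.4 to 22.0 in CD4 sp cells. The caspase gene CASP9 was lower in CD8A sp cells with CCR7 than in those without (log2 fold change -0.51 ± 0.15, SE), a comparison in which 9.12% of all genes passed. In GZMK+ GZMB- cells of dogs 2 to 4 its direction was opposite and it was not called (0.278 ± 0.316, higher in 2 of 3 dogs).

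Genes with a like pattern were sought over the 13 classes of CD8A sp and CD4 sp cells, from 9941 genes, as the mean over dogs of Pearson's r. The classes share libraries and the gate genes, so the values are a description. AIFM3 was most like the adhesion receptor gene ADGRG1 (0.923), the death ligand gene FASLG (0.900), CBLB (0.892), KLRB1 (0.885) and PRF1 (0.884). EPAS1 was most like TMEM165 (0.799), MDFIC (0.779), CD40LG (0.773), SAMHD1 (0.761) and NISCH (0.747). ANOS1 was most like the feature named CD79A (0.747), the cytokine receptor gene IL18R1 (0.681) and SESN1 (0.646). CD79A is a B cell gene, but the feature of this name held 783210 UMIs in CD8A sp and CD4 sp cells together. The B cell list, which did not include it, summed to at most 7.59 CPM in these lineages. Whether the name fits the counted transcript was not tested. UCHL1 was most like YTHDC2 (0.636) and SLC7A6 (0.602). PPFIA2 had no gene above 0.466. Between members r was -0.448 for EPAS1 and AIFM3 and ranged from -0.159 to 0.343 for the other pairs.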

How the data were processed

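The deposited files hold UMI counts for each gene and cell barcode, without normalization and for called cells alone, from 5' libraries processed with Cell Ranger 5.0.1 per the submitters' notes, and lists of productive receptor rearrangements with counts. Reads had been aligned to CanFam 3.1, no genome of that build was used here, and no coordinates are given. The gene list of dog 1 has 27980 lines for 20257 genes, so that of dogs 2 to 4 was used. Doublets had been gated out in the sort, before cells were loaded into droplets. Droplets that took up more than 1 cell may remain, as no doublet caller was run here. More than 1 TRB chain was found in 894 cells. CD8B has no named feature.

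The members and gene lists were chosen with earlier results of these data known. A gene was detected with 1 UMI. For tests, UMIs were summed per dog and arm (at least 10 cells per sum, at least 3 dogs). CD8A, CD4, GZMK, GZMB, IL7R and any gene whose detection split the cells were left out, and T cell receptor genes were kept. Sums were fitted across all genes with edgeR 4.0.16 in R 4.3.3 (filterByExpr, TMM, glmQLFit, glmQLFTest), with Benjamini-Hochberg adjustment at 0.05. Each dog gave both arms. Deviations of its sums correlated at 0.072 to 0.461, and a fit with the dog as a replicate block was run beside each. DESeq2 1.42.0, other filters, depths and clone rules and each dog left out were alternatives. The fit was tested on simulated data. Genes were named as members, by list, by the 5 largest changes of the same sign in every dog, and by likeness, taken on log2(CPM + 1) for genes with at least 100 UMIs. Beyond this rule, values of splits by single markers were chosen after they had been seen. Summaries used Python 3.11.15, numpy 2.4.6, pandas 2.3.3 and scipy 1.17.1. For a count of 0, 3 counts were taken as the limit. All 4 dogs ran together, so no batch could be compared. Some results are not reported here.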

Additional observations from a re-analysis of the deposited data

Results flagged for a closer look

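Sets of 4 dogs were formed for each gene in each class with at least 20 cells in every dog. Of 60 such sets, 5 held a dog far from the other 3, by its gap to the nearest dog over the range. A chance rate of about 1 in 20 assumes normal and independent sets. These sets came from the same 4 dogs, some with few UMIs. All but the dn set were CD8A sp classes used in choosing the genes. The 5 sets are therefore given as a description with no test. UCHL1 in CD8A sp GZMK+ GZMB+ IL7R- cells stood at 50.8 CPM in dog 2 and at most 6.38 in the others, from 81 UMIs in 431 cells, and at 42.2 without the 37 cells of the TRBV4-3 and TRBJ1-6 clone. AIFM3 in CD8A sp GZMK- GZMB+ IL7R+ cells stood at 71.0 in dog 3 and at most 16.8 in the others, from 18 UMIs in 65 cells, and at 66.4 without its largest clone. EPAS1 in dn GZMK- GZMB- IL7R- cells stood at 18.3 in dog 4 and at most 6.24 in the others, from 22 UMIs in 440 cells. ANOS1 in CD8A sp GZMK+ GZMB+ IL7R+ cells stood at 32.5 in dog 1 and at most 14.7 in the others, from 4 UMIs in 26 cells. EPAS1 in the same class was low in dog 2, at 10.6 against at least 15.5, from 9 UMIs in 171 cells.

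In 2 cases the gate moved a gene in opposite directions in every dog of a pair of lineages, and the difference was not tested. UCHL1 was higher in the GZMK+ GZMB- IL7R+ gate than in the other CD8A sp cells by 25.0 CPM on average, and the same difference (gate minus other) was -3.91 in CD4 sp cells. Its CD8A differences were 52.2, 5.44, 30.7 and 11.6 in dogs 1 to 4, that of dog 1 from 4 UMIs in 14 gated cells. For AIFM3 the mean difference was -15.9 in CD8A sp cells and 5.54 in dn cells. Its dn differences were 7.5, 0.972, 12.9 and 0.802 in dogs 1 to 4, from 1, 10, 29 and 2 gated UMIs. The CD8A value of AIFM3 included -32.2 in dog 1, from the same 14 gated cells.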

How the results depend on the processing

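With the dog as a replicate block, 445 genes were called for the CD8A memory gate, 481 for the gate among dn cells, 18 and 545 for expanded clones (GZMK+ GZMB- and all CD8A sp), 140 and 1385 for CCR7 (likewise), and 251, 183, 312 and 77 for cells with UCHL1, AIFM3, EPAS1 and ANOS1. The block turned 7 results of single genes into calls, given in the report, and removed none. Those in CD8A sp cells are not independent of the choice of the genes and are read as a description. DESeq2 called 101 for the dn gate, 1 for expanded GZMK+ GZMB- cells, 14 for CCR7 in GZMK+ GZMB- cells, 195 for expanded CD8A sp cells and 167, 25 and 15 for UCHL1, AIFM3 and EPAS1. With no filter on low counts the CD8A gate gave 145, the dn gate 105, expanded GZMK+ GZMB- cells 37 (UCHL1 among them, adjusted p = 0.00519, edgeR) and CCR7 in GZMK+ GZMB- cells 84. At least 20 cells per sum gave 42 for the CD8A gate. In expanded GZMK+ GZMB- cells, cells from 2000 UMIs, clones by both chains and clones from 3 cells each gave 1. Leaving out 1 dog at a time gave 37 to 55 calls for the CD8A gate, 9 to 49 for the dn gate, 0 to 3 for expanded GZMK+ GZMB- cells, 1 to 114 for UCHL1, 0 to 3 for AIFM3, 0 to 8 for EPAS1, 24 to 72 for expanded CD8A sp cells and 264 to 558 for CCR7. The log2 fold change by CCR7 changed sign when a dog was left out, none of the values called: for ANOS1 in GZMK+ GZMB- cells it ran from -0.433 to 0.01 (0.01 without dog 2), for AIFM3 there from -0.321 (without dog 3) to 0.641, and for ANOS1 in all CD8A sp cells from -0.088 (without dog 3) to 0.445. The causes were not tested. Of the counts of called genes 46 stayed within 1.5 times and 43 moved. Comparisons of UCHL1, ANOS1 and EPAS1 within GZMK+ GZMB- cells were not run, since 2 dogs had at least 10 cells per arm. With 4 dogs and mostly 1 UMI per positive cell, absence of a call does not show that a gene was equal.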

Other observations

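Among dn cells, those with GZMB and without GZMK and IL7R held UCHL1 at 70.4 ± 77.8 CPM (SD, n = 4 dogs), a class with a median of 1287.5 UMIs per cell, so the value rests on few and shallow cells. EPAS1 in CD4 sp cells with KLRK1 stood at 7.76, 37.5, 25.4 and 37.2 in dogs 1 to 4 against 5.17, 21.3, 12.4 and 29.2 without, higher in each dog, and with MKI67 at 3.20, 11.7, 10.3 and 3.84 against 5.29, 24.2, 15.0 and 31.3, lower in each dog. The neuronal markers of the list, mostly STMN2, summed to 1.77 to 5.23 CPM in CD8A sp cells and at most 0.901 in CD4 sp cells.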
